A study of Mus musculus with 17 samples.

Results

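The AP-1 family is a set of basic leucine zipper transcription factors. It was examined here as 8 genes chosen by symbol, of 55486 gene rows in the count table: the Fos genes Fos, Fosb, Fosl1 and Fosl2, the Jun genes Jun, Junb and Jund, and the related factor Atf3. Counts allowed a test of 7 of the 8, because Fosl1 was nearly absent. The RNA came from isolated ventricular cardiomyocytes of mice at postnatal day 60, labelled MBNL1 loss-of-function (KO) or control (WT). MBNL1 is an RNA-binding protein that controls splicing and stability of transcripts. Cells were plated for 3 h and then given actinomycin D, which stops transcription, at 2 µg per mL. They were collected at 0, 4 and 8 h. The question was which transcripts depend on MBNL1 for their stability. There were 3 libraries each for KO at 0, 4 and 8 h and for WT at 0 and 8 h, and 2 for WT at 4 h, 17 in all. The labels name no allele, Cre driver or strain and give no animal for a replicate, so p-values measure only the spread between these samples, which may be technical.

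Fos proteins bind DNA only as partners of Jun proteins, whereas Jun proteins can also pair with one another, and Atf3 can pair with itself or with Jun. Most of the genes are known as immediate early genes, which growth factors, stretch and stress switch on within minutes through MAP kinases and serum response factor; Jund, by contrast, is expressed steadily. Immediate early transcripts are usually short-lived, because AU-rich elements in the 3′ UTR recruit decay factors such as ZFP36. In heart muscle Fos, Jun and Atf3 are known to be induced by pressure load, ischaemia and cell isolation itself.

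The 17 libraries held 17058400 to 17968800 gene counts, of which 35.1 to 43.3% were mitochondrial. Mbnl1 itself was counted at 93.9 to 106 CPM (counts scaled to a common library total) in the 9 KO libraries and 85.7 to 93.0 in the 8 WT libraries, and 1 count per gene cannot check a deletion of part of the gene. Esr1, the oestrogen receptor gene, had 36443 to 46057 counts in each KO library and 0 to 57 in each WT library; the labels name no transgene, and the part of this difference in the results was not tested. The summed level of 10 cardiomyocyte markers was 57356 to 60497 CPM in KO and 43330 to 47305 CPM in WT at 0 h, so the labelled cell type was present in both.

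All 8 transcripts held the pentamer ATTTA, a short string found in AU-rich elements, as did most tested genes with a 3′ UTR. The pentamer ATTTA was counted on the transcript strand in the 3′ UTR of 1 transcript per gene (GRCm38, GENCODE M21). Fosl2 had 8 copies in a 3′ UTR of 4653 bases, Fos 4 in 815 bases, Jun 4 in 1233, Atf3 3 in 1186, Junb 2 in 485, and Fosb, Fosl1 and Jund 1 each in 2302, 638 and 533 bases. Among tested genes with a 3′ UTR the median was 2 copies, and 70.8% had at least 1. Only Fos and Fosl2 of the 8 genes also held the longer TTATTTATT, which overlaps the pentamer and was found in 8.32% of those genes. The Fos site, with its run of overlapping pentamers, and the sites of Jun, Fosl2 and Fosb are shown because these genes span the widest range of change during the block. Capitals mark ATTTA, and the first and last base are counted from the base after the stop codon.
Fos, bases 643 to 670: tgtgttttcaATTTATTTAttaagatgg
Jun, bases 1032 to 1059: tcATTTAtaatcataggaaagATTTAgt
Fosl2, bases 3676 to 3703: attgacATTTAttttattATTTAtttta
Fosb, bases 1650 to 1677: ccacccccagctATTTAtccctttcctg
The tetramer TGCT, its variants TGCC and CGCT, and the doubly changed form CGCC, which MBNL proteins are known to bind as RNA, were counted on the same strand. Fos held 4.91 per kb and Atf3 6.75 per kb, whereas Jund held 26.3 and Junb 22.7. Over all tested genes with a 3′ UTR the median was 12.6 per kb. These counts are descriptions of sequence and not evidence of binding.

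Promoter windows were taken from RefSeq (GRCm38.p6) for 7 of the 8 genes. Those of Fos, Fosb, Jun and Junb span the gene start given by GENCODE. The Jund window (70697489 to 70697788) ends before the GENCODE start at 70698949. The windows of Atf3 (191183284 to 191183583) and Fosl2 (32136222 to 32136521) lie inside the GENCODE genes. Motifs reported for these 3 genes hold for those windows only. The pentamer TGACG, the core of a cAMP response element, was searched on both strands and found in 20.8% of 32851 promoters. It was present in Fos, Fosb, Junb and Atf3. The TATA-like TATAAA (13.6% of promoters, either strand) was present in Fos and Junb. The full palindrome TGACGTCA (1.79%), which overlaps TGACG, had no match in any of the 7 windows. Neither had the AP-1 site TGACTCA or its complement (5.2%) or the CArG box (1.63%), which serum response factor is known to bind. This says only that these letters are not in the windows. The Fos window, for example, begins at base 85473640 and the gene at 85473890. Sequence outside the windows was not searched, so sites farther upstream would be missed. The Fos promoter, plus strand, is shown because Fos carries both motifs and had the least negative change of the 7 tested genes over 8 h of the block in both genotypes; capitals mark TGACG and TATAAA.
Fos, chr12:85473640-85473939: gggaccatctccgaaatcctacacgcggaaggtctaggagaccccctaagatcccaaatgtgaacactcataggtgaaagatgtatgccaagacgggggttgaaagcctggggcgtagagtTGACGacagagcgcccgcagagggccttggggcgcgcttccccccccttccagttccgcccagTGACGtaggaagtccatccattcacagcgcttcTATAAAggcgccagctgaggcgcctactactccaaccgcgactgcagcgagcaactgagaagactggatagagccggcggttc

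Before actinomycin D was added, the KO libraries held less of every tested member. All 7 of 7 were called lower, against 17.9% of all 13229 tested genes called lower, and in all 7 every KO library lay below every WT library, which held for 23.3% of genes. The median log2 difference was -0.57, against -0.02 over all genes. The order from the largest difference to the smallest was Fos, Fosl2, Atf3, Fosb, Junb, Jun and Jund. Calls rest on edgeR's quasi-likelihood test with Benjamini-Hochberg adjustment over all tested genes at 0.05, and levels are CPM scaled by the trimmed mean of M values (TMM).

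**Figure D1:**
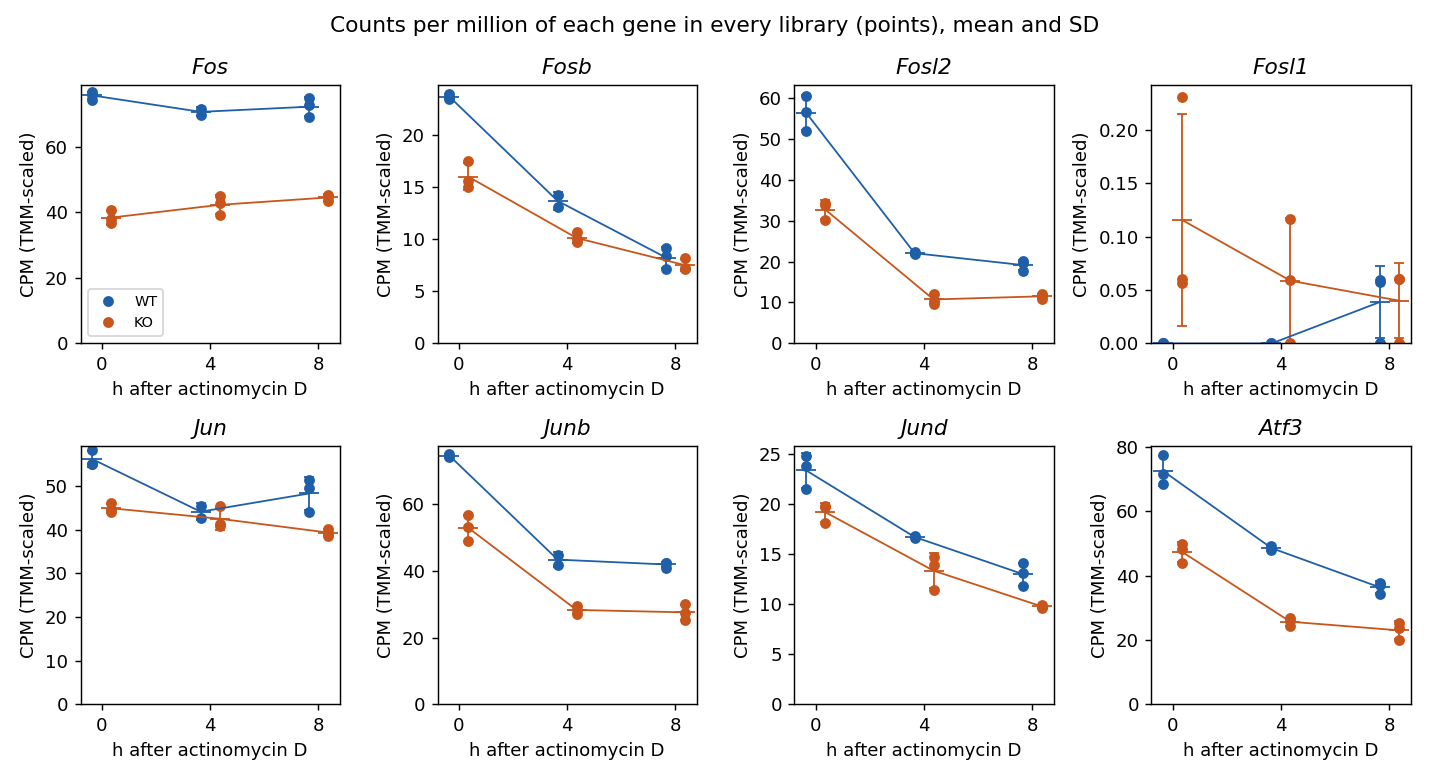
Level of each of the 8 genes (vertical axis, TMM-scaled CPM from 0) against h after actinomycin D (horizontal axis) in WT (blue) and KO (orange); each point is 1 library, set slightly aside of its time, and bars are the mean and SD of 3 libraries (2 for WT at 4 h). The KO points lie below the WT points for all 7 tested genes at 0 h, Fos at 8 h is at 95.5% of its 0 h mean in WT and 116% in KO on this scale, and Fosl1 does not exceed 0.231 CPM.

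Fos (chromosome 12, 85473890 to 85477273, plus strand, GRCm38) encodes the founding Fos protein, c-Fos. It measured 75.9, 76.8 and 74.5 CPM in WT at 0 h and 40.8, 36.7 and 37.8 CPM in KO. The WT values at 4 h were 71.7 and 69.7 CPM, and the KO values 44.9, 39.3 and 42.7. At 8 h WT held 69.1, 75.0 and 72.7 CPM and KO 43.5, 45.5 and 44.7. Every KO library was below every WT library at all 3 times, and the gap at 0 h was the widest. The log2 difference of KO from WT was -0.98 ± 0.06 (SE; edgeR adjusted p = 7.4e-23) at 0 h, -0.74 ± 0.06 at 4 h and -0.70 ± 0.06 at 8 h (adjusted p = 1.9e-15 and 3.4e-16).

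Fosl2 (chromosome 5, 32135801 to 32157842, plus strand), which encodes FRA-2, a Fos protein without a strong activation domain, was 51.9, 60.4 and 56.4 CPM in WT at 0 h and 30.0, 34.2 and 33.8 in KO. At 4 h the WT values were 22.3 and 21.7 CPM and the KO values 9.72, 12.1 and 10.4. At 8 h they were 19.6, 20.1 and 17.7 CPM in WT and 10.9, 11.7 and 12.0 in KO. The genotypes did not overlap at any time, and the levels at 4 and 8 h were far below those at 0 h in both. The log2 difference of KO from WT was -0.78 ± 0.07 at 0 h, -1.04 ± 0.09 at 4 h and -0.73 ± 0.08 at 8 h (edgeR adjusted p = 1.1e-15, 1.1e-14 and 1.2e-10).

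Fosb (chromosome 7, 19302696 to 19310051, minus strand) encodes FosB and, by alternative splicing, the truncated ΔFosB, which gene counts do not separate. Its WT values at 0 h were 23.7, 23.5 and 24.0 CPM and its KO values 15.0, 17.5 and 15.6. At 4 h they were 14.3 and 13.1 in WT and 10.0, 9.70 and 10.7 CPM in KO. At 8 h WT measured 8.41, 9.21 and 7.15 CPM and KO 7.25, 7.15 and 8.18. The groups were apart at 0 and 4 h and overlapped at 8 h. The difference shrank from -0.57 ± 0.08 (edgeR adjusted p = 1.5e-08) at 0 h through -0.43 ± 0.10 (adjusted p = 0.00056) at 4 h to -0.13 ± 0.11 (adjusted p = 0.384) at 8 h, on the log2 scale.

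Fosl1 (chromosome 19, 5447547 to 5455946, plus strand), which encodes FRA-1, was close to absent. It gave 11 counts over 9 KO libraries, that is 0.0692 unscaled CPM with an exact 95% binomial interval of 0.0346 to 0.124. Over 8 WT libraries it gave 2 counts, that is 0.0144 CPM with an interval of 0.00174 to 0.0520, covering counting error only. It was not tested, is absent from the deposited ratios, and its exons overlap those of Ccdc85b on the other strand, so these few counts cannot be assigned to it with certainty.

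Jun (chromosome 4, 95049034 to 95052222, minus strand), whose product c-Jun is the main partner of Fos proteins, showed its smallest genotype difference at 4 h on the TMM scale. At 0 h it measured 55.2, 58.3 and 55.1 CPM in WT and 44.6, 44.1 and 46.1 in KO. At 4 h the values were 42.8 and 45.5 CPM in WT and 45.5, 41.4 and 40.8 in KO. At 8 h the values were 49.5, 44.0 and 51.5 CPM in WT and 39.3, 38.6 and 40.2 in KO. The groups were apart at 0 and 8 h and overlapped at 4 h. The log2 differences were -0.32 ± 0.06, -0.05 ± 0.07 and -0.30 ± 0.06 (edgeR adjusted p = 7.8e-06, 0.598 and 9.9e-05). Scaled instead to 83 ribosomal protein genes, they were -0.65, -0.41 and -0.35, the 4 h difference was called (adjusted p = 3.61e-05), and the smallest was that at 8 h.

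Junb (chromosome 8, 84974484 to 84978718, minus strand), whose product often restrains c-Jun, was 75.0, 74.3 and 74.4 CPM in WT at 0 h and 48.8, 53.2 and 56.7 in KO. At 4 h WT held 44.9 and 41.9 CPM and KO 29.5, 28.1 and 27.1. At 8 h WT held 41.0, 42.3 and 42.4 CPM and KO 29.9, 25.2 and 27.5. The genotypes were apart at every time. The log2 difference was -0.50 ± 0.06, -0.62 ± 0.07 and -0.60 ± 0.06 at 0, 4 and 8 h (edgeR adjusted p = 1.5e-10, 8.1e-11 and 7.9e-12). Exons of Junb and of Prdx2 overlap on opposite strands; whether counting used strand is not given in the sources used here, and Prdx2, at 5630 to 8539 counts a library, differed the other way at 0 h (log2 0.32 ± 0.04, adjusted p = 1.6e-09).

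Jund (chromosome 8, 70698949 to 70700616, plus strand), the Jun gene known for steady expression in resting cells, measured 21.4, 23.8 and 24.8 CPM in WT at 0 h and 18.1, 19.7 and 19.8 in KO. At 4 h WT held 16.6 and 16.8 CPM and KO 13.9, 11.4 and 14.7. At 8 h WT held 13.1, 14.1 and 11.8 CPM and KO 9.73, 9.95 and 9.62. The groups were apart at every time, with the narrowest gap at 0 h. The log2 differences were -0.29 ± 0.08, -0.32 ± 0.10 and -0.41 ± 0.10 (edgeR adjusted p = 0.00223, 0.00619 and 0.00052). The 4 h call was lost without KO 4 h replicate 2 (-0.22, adjusted p = 0.0944), without WT 4 h replicate 1 (-0.31, adjusted p = 0.0582) or without WT 4 h replicate 2 (-0.28, adjusted p = 0.0822).

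Atf3 (chromosome 1, 191170296 to 191218039, minus strand), a stress-induced factor that mostly represses its targets, measured 68.5, 77.5 and 71.5 CPM in WT at 0 h and 48.3, 43.9 and 50.0 in KO. At 4 h WT held 49.2 and 47.9 CPM and KO 25.9, 26.8 and 24.3. At 8 h WT held 34.3, 37.1 and 37.7 CPM and KO 25.3, 19.9 and 23.7. The genotypes were apart at every time. The log2 difference was -0.61 ± 0.06, -0.92 ± 0.07 and -0.66 ± 0.07 (edgeR adjusted p = 1.8e-12, 4.8e-16 and 1.2e-11).

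The genotype difference was thus called for 6 of 7 members at 4 h and for 6 of 7 at 8 h, where 17.4% and 13.7% of all tested genes were called lower. Groups without overlap were counted for 6 of 7 at each of these times, against 30% and 20% of genes. Fos, Fosl2, Junb, Jund and Atf3 were lower in KO at all 3 times, which held for 6.92% of genes. No scaling tried changed the sign of a member's genotype difference; library size alone and ribosomal protein scaling moved the median gene by -0.21 and -0.33 at 0 h. The summed level of the 8 genes was 382 ± 11.6 CPM (SD, n = 3) in WT and 252 ± 7.43 (n = 3) in KO at 0 h, and 239 CPM in WT and 163 in KO at 8 h.

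**Figure D2:**
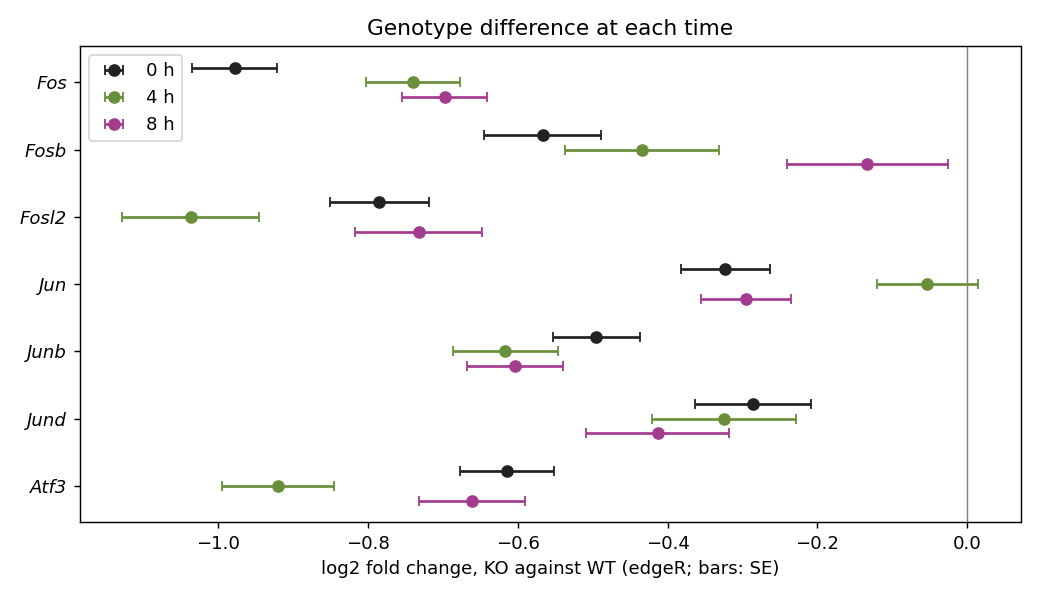
Log2 fold change of KO against WT (horizontal axis) for each tested gene (vertical axis) at 0, 4 and 8 h; points are edgeR estimates and bars their SE. All points lie left of 0, with Fosb at 8 h and Jun at 4 h nearest to it.

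Markers of cardiomyocytes and of some other cells differed between the groups too. At 0 h 17.9% of all tested genes were called lower in KO and 18.8% higher. At 8 h these shares were 13.7% and 13.9%. Of 10 cardiomyocyte markers, 7 were called higher in KO at 0 h and 5 at 8 h, and 0 lower at either time. At 8 h against 0 h, 8 of 10 were called higher in WT and 9 of 10 in KO. Over all 13229 tested genes 3313 and 2829 were. Macrophage markers, 10 in number, summed to 79.9–93.6 CPM in WT and 33.3–38.0 in KO at 0 h, with 9 of 10 called lower in KO; at 8 h the sums were 16.2–18.8 and 21.9–26.7, with 4 called higher. Fibroblast markers summed to 69.4–71.4 CPM in WT and 35.6–38.8 in KO at 0 h, and to 40.5–47.7 and 23.3–26.0 at 8 h, with 8 and 6 of 9 tested called lower in KO; Tcf21 was at 0 in KO at 8 h. Endothelial markers fell from 249–267 to 58.4–62.7 CPM in WT and from 206–237 to 53.1–57.2 in KO, with 6 of 10 called lower in KO and 2 higher at 0 h. Pericyte and smooth muscle markers summed to 1815–1836 CPM in WT and 1905–2020 in KO at 0 h. Of 9 tested, 1 was called lower in KO, 1 higher and 7 neither. By 8 h the sums were 2246–2460 CPM in WT and 2539–2558 in KO. Yet 6 of 9 in WT and 5 of 9 in KO were called lower than at 0 h, against 26.8% and 23.2% of all genes, and 3 in each higher. The sum thus did not follow most of these markers and is not read here as a level of these cells. No other listed marker of the 4 cell types besides cardiomyocytes was at 0 throughout a group. Fewer cells of a type and less RNA per cell cannot be told apart in bulk samples, and the part of these cells in the AP-1 differences was not tested.

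The levels of the genes relative to one another were compared per kb of exon. In WT at 0 h Atf3 (33.7 ± 2.13 CPM per kb), Junb (32.4 ± 0.178) and Fos (32.2 ± 0.500) lay within their SDs of each other (n = 3). Jun (17.6) and Jund (14.0) followed, well above Fosl2 (5.81) and Fosb (3.80). In KO at 0 h Junb (23.0 ± 1.71) and Atf3 (22.0 ± 1.47) led, and Fos, at 16.3 ± 0.906, stood nearer to Jun (14.1 ± 0.325). By 8 h Fos led in both genotypes, at 30.7 ± 1.26 CPM per kb in WT and 18.9 ± 0.417 in KO. Its share of the summed CPM of the 8 genes rose from 19.8 to 30.2% in WT and from 15.3 to 27.3% in KO. Exon length stands in for the true transcript length here.

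During the block, 6 of 7 members fell in WT, and the change of 1, Fos, was called or not depending on the scaling. At 8 h against 0 h, 26.8% of all genes were called lower in WT, and the member median was -0.85 against -0.03 over all genes. Fosl2 and Fosb fell most, to 34.0% and 34.8% of their 0 h mean, followed by Atf3 (50.1%), Jund (55.7%), Junb (56.2%) and Jun (86.0%), while Fos stood at 95.5%. The log2 changes were -1.56 ± 0.07 for Fosl2, -1.52 ± 0.09 for Fosb, -0.85 ± 0.08 for Jund, -0.83 ± 0.06 for Junb and -0.22 ± 0.06 for Jun (edgeR adjusted p from 1.4e-28 to 0.00127), and Atf3 was called with an adjusted p of 8.3e-21. Fos gave -0.07 ± 0.05 (adjusted p = 0.307), and its 0 and 8 h libraries overlapped. It was called lower with library size alone (-0.28, adjusted p = 1.22e-04) and with ribosomal protein scaling (-0.73, adjusted p = 1.79e-14), with which the other 6 changes ran from -0.88 for Jun to -2.22 for Fosl2.

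On the TMM scale most of the WT fall was complete by 4 h for Fosl2 and Junb. At 4 h 6 of 7 members were lower (12.6% of all genes), with Fosl2 at -1.35 ± 0.08 and Junb at -0.78 ± 0.07 on the log2 scale (edgeR adjusted p = 2.8e-22 and 6.3e-15). Fos was not called at 4 h, but was with library size alone (-0.28, adjusted p = 0.00197) and ribosomal protein scaling (-0.29, adjusted p = 0.00742). From 4 to 8 h 3 of 7 were called lower, against 9.55% of genes: Fosb (-0.73 ± 0.11), Atf3 (-0.42 ± 0.07) and Jund (-0.36 ± 0.10) (edgeR adjusted p = 3.2e-07, 1.6e-05 and 0.00453). The Jund call was lost without WT 4 h replicate 1 (adjusted p = 0.0506) or replicate 2 (0.0704). Over the same interval Junb changed by -0.05 ± 0.07 and Fosl2 by -0.20 ± 0.09, neither past the threshold (adjusted p = 0.679 and 0.0856). Ribosomal protein scaling, which moved the median gene by -0.47 here, called all 7 lower, as it did 9341 of all 13229 tested genes. It put Junb at -0.52 and Fosl2 at -0.68 (edgeR adjusted p = 3.06e-07 and 1.63e-08), Fos at -0.44 and Jun at -0.34. Jun was called higher without WT 8 h replicate 2 (0.19, adjusted p = 0.0483).

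In KO cells the same 6 members were lower at 8 h than at 0 h, against 23.2% of genes, and Fos was higher, as were 21.4% of genes. The member median was -0.97 on the log2 scale, against -0.02 over all genes. Fosl2 changed by -1.50 ± 0.08, Fosb by -1.09 ± 0.10, Atf3 by -1.04 ± 0.07, Jund by -0.97 ± 0.09, Junb by -0.94 ± 0.06 and Jun by -0.19 ± 0.06 (edgeR adjusted p from 7.2e-25 to 0.008). The Jun call was lost when no filter on low counts was used (-0.14, adjusted p = 0.121). At 4 h 5 of 7 were lower (13.5% of genes), with Jun at -0.08 ± 0.06 and Fos at 0.14 ± 0.06 not called (edgeR adjusted p = 0.372 and 0.0747). Fos was called higher at 4 h with RLE size factors (0.15, adjusted p = 0.0473), with no filter on low counts (0.17, adjusted p = 0.0398), without KO 0 h replicate 1 (0.19, adjusted p = 0.0387) and without KO 4 h replicate 2 (0.19, adjusted p = 0.0289), and with ribosomal protein scaling it was at -0.083 and uncalled. Jun was called lower at 4 h with ribosomal protein scaling (-0.30, adjusted p = 0.00151). From 4 to 8 h 2 of 7 fell, against 3.82% of genes: Jund (-0.45 ± 0.10) and Fosb (-0.43 ± 0.10) (edgeR adjusted p = 0.00108 and 0.00433). Jun (-0.28, adjusted p = 0.00834) and Atf3 (-0.33, adjusted p = 0.00674) were called lower as well when ribosomal protein scaling was used.

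Fos in KO rose by 0.21 ± 0.06 on the log2 scale from 0 to 8 h (edgeR adjusted p = 0.0021), to 116% of its 0 h mean, and its 8 h libraries (43.5 to 45.5 CPM) all lay above its 0 h libraries (36.7 to 40.8 CPM). This direction depends on the scaling. With library size alone the change was 0.11 (adjusted p = 0.221), and scaled to the ribosomal protein genes it was -0.18 (adjusted p = 0.048). All changes during the block are shares of a library whose total RNA can shrink, and ribosomal protein scaling moved the median gene by -0.66 in WT and -0.39 in KO at 8 h. No library was left without actinomycin D for 4 or 8 h, so time in culture and the block cannot be told apart.

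**Figure D3:**
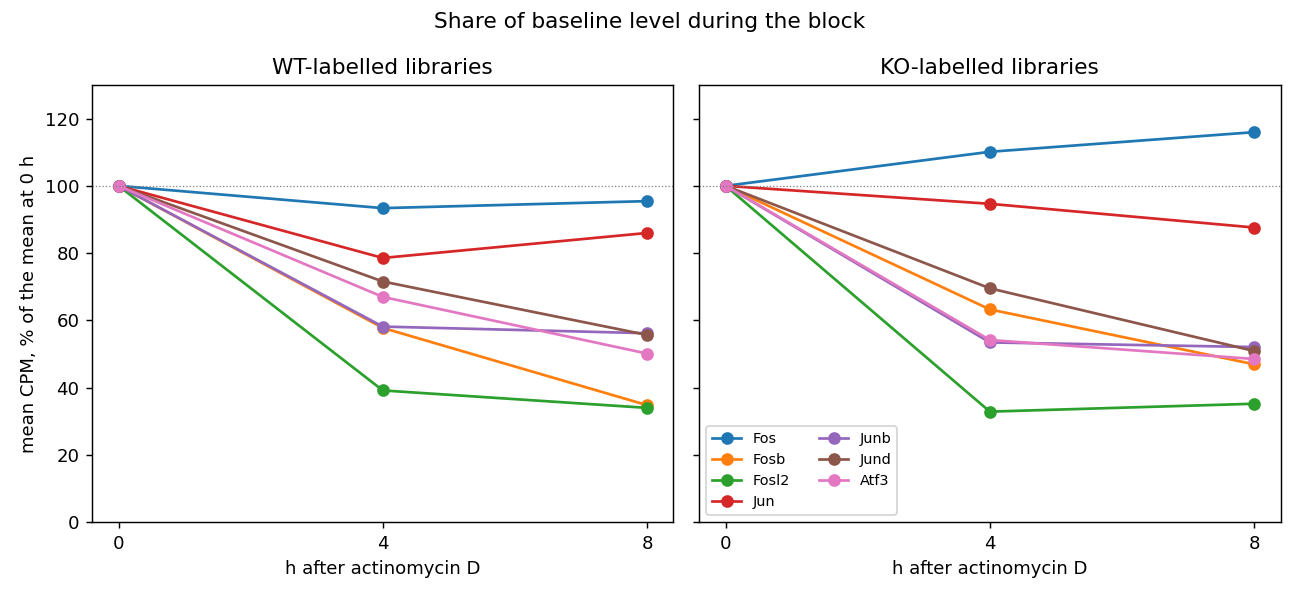
Mean TMM-scaled CPM as a percent of the mean at 0 h (vertical axis) against h after actinomycin D (horizontal axis) for the 7 tested genes, in WT (left) and KO (right); lines join group means and carry no error bars. Fos is the top line in both panels, at 95.5% and 116% at 8 h, and Fosl2 is at 34.0% and 35.2%.

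Whether loss of MBNL1 changed the course was asked as the difference between the genotypes' changes from 0 h. At 8 h 2 of 7 members were called, both in the direction of a higher KO change, against 5.2% of genes called either way, 1.87% called higher and 3.33% called lower: Fos, whose change in KO exceeded that in WT by 0.28 ± 0.08 (95% interval 0.12 to 0.44, edgeR adjusted p = 0.0248), and Fosb, by 0.43 ± 0.13 (0.17 to 0.69, adjusted p = 0.0396). Fosb thus fell to 47.0% of its 0 h mean in KO and 34.8% in WT. Both began lower in KO. Leaving out 1 library at a time ended the Fos call in 7 of 12 cases (0.24 to 0.33, adjusted p from 0.0123 to 0.0882) and the Fosb call in 10 of 12 (0.34 to 0.52, adjusted p from 0.0175 to 0.159). Ribosomal protein scaling, which moved the median gene by 0.27 in this comparison, gave 0.55 for Fos and 0.70 for Fosb. DESeq2 kept the Fos call and not that of Fosb (adjusted p = 0.0744).

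For the other members the 8 h interval of the difference was -0.16 to 0.26 for Fosl2, -0.14 to 0.19 for Jun, -0.28 to 0.06 for Junb, -0.37 to 0.11 for Jund and -0.23 to 0.14 for Atf3, none of them called. With ribosomal protein scaling 3 of 7 were called, Fos, Fosb and Jun. Of all 13229 tested genes this scaling called 2887 higher and 44 lower. Jun was then at 0.30 (edgeR adjusted p = 0.0344), against 0.03 on the TMM scale. At 4 h no member was called by edgeR (0.348% of genes were). At an unadjusted p under 0.05 there were 4: Jun (0.27 ± 0.09), Fos (0.24 ± 0.08), Atf3 (-0.31 ± 0.10) and Fosl2 (-0.25 ± 0.11), with adjusted p of 0.282, 0.319, 0.239 and 0.489. With library size alone Fos (0.39) and Jun (0.42) were called at 4 h, and over all tested genes 98 were called higher and 2 lower.

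**Figure D4:**
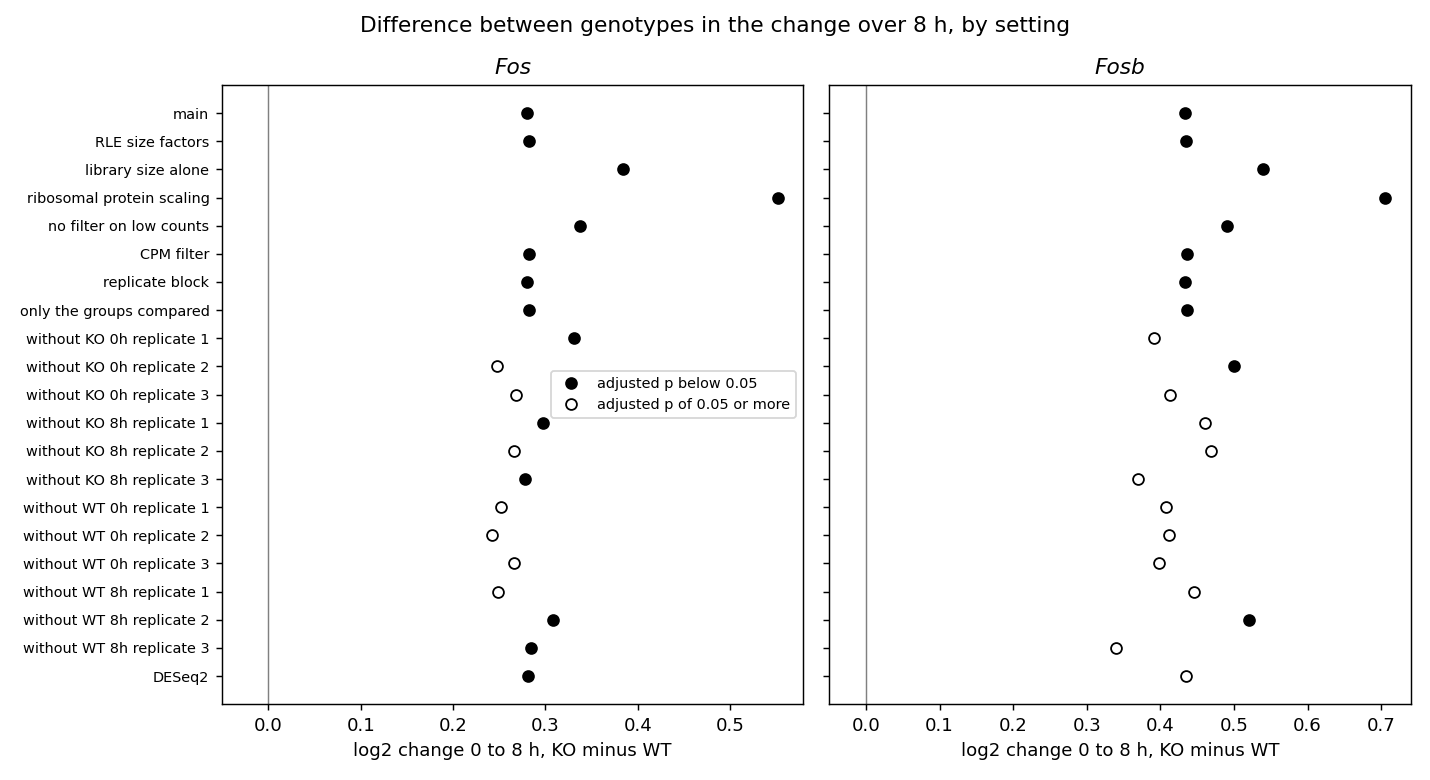
Difference between genotypes in the change from 0 to 8 h, KO minus WT (horizontal axis, log2), for Fos and Fosb under each setting (vertical axis); filled points have an adjusted p below 0.05. The main values are 0.28 and 0.43, all points lie right of 0, and most settings that leave out a library are open.

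The deposited ratios, in which the authors divided a value by the gene's mean at 0 h in its genotype, differed in the same direction for Fos. Its mean ratio at 8 h was 0.811 ± 0.043 in WT and 1.08 ± 0.035 in KO (SD, n = 3 each), a log2 difference of 0.41 (limma adjusted p = 0.00915) on the log2(ratio + 0.01) scale. It was the only 1 of 7 members called at 8 h, where 6.74% of genes were. Fosb gave 0.33 (adjusted p = 0.235), with mean ratios of 0.323 in WT and 0.406 in KO. At 4 h none was called by limma (0.134% of genes were). The ratios come from the same libraries, so they are not independent of the counts. The limma test compared the genotypes' ratios at 1 time and took each 0 h mean as known. Its p-values thus leave out the error of the 0 h means, where the Fos ratios had an SD of 0.047 in WT and 0.111 in KO. They are too small as a test of a different course.

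Across the 17 libraries, Fos and the remaining members were alike to different degrees, as a description of log2 CPM that is set by genotype and time together. Junb and Fosl2 (Pearson r = 0.98), Junb and Atf3 (0.97) and Fosb and Jund (0.96) ran closely together, whereas Fos correlated at 0.26 with Fosb and 0.33 with Jund. Of 6602 genes searched, those most like Fos were Scn4b (r = 0.978), a sodium channel β subunit, Scd4 (0.975), a fatty acid desaturase, and Mal (0.975). Scn4b was 90.9 CPM in WT and 30.7 in KO at 0 h, and 102 and 38.2 at 8 h. The nearest to Junb, Irs2 (0.986), an insulin receptor substrate, and the nearest to Atf3, Tiparp (0.979), an ADP-ribosyltransferase, fell from 50.0 to 24.4 and from 37.7 to 16.4 CPM in WT. Fosb was nearest to Cav1 (0.979), the caveolin gene of endothelium and other cells, Cxcl12 (0.978) and Heg1 (0.973), of which Cav1 was 57.8 CPM in WT at 0 h and 11.9 at 8 h. For Jun the highest was Gsn, at 0.906.

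Other immediate early genes were also mostly lower in KO at 0 h and mostly fell. Of 28 listed, 22 were lower and 1 higher in KO at 0 h, against 17.9% and 18.8% of all tested genes. Nr4a1 was lowest (log2 -2.45 ± 0.06, 84.2 CPM in WT and 15.4 in KO) and Ier5 higher (0.49 ± 0.08). During the block fewer were called lower in KO: 14 of 28 at 4 h and 15 of 28 at 8 h, against 17.4% and 13.7% of all genes. At 8 h 1 was called higher, against 13.9%. In WT 26 of 28 fell by 8 h, most of all Nfkbiz (-2.43 ± 0.23) and Sgk1 (-2.06 ± 0.10), and in KO 24 fell, against 26.8% and 23.2% of all genes. Egr1, a zinc finger immediate early factor, measured 184 CPM at 0 h and 145 at 8 h in WT, 103 and 126 in KO. Its change in KO exceeded that in WT by 0.64 ± 0.07 (edgeR adjusted p = 4.6e-10), and it was 1 of 4 listed genes called higher in this comparison (1.87% of all genes), with 1 lower (3.33%), Klf2 (-0.95 ± 0.27, adjusted p = 0.026).

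Partners of AP-1 proteins were called in both directions. Of 20 tested basic leucine zipper genes, 6 were lower (30%) and 3 higher (15%) in KO at 0 h, against 17.9% and 18.8% of all genes, and the median was -0.01 on the log2 scale against -0.02. Maf, a large Maf factor, was lowest (-1.22 ± 0.16), and Ddit3, the stress factor CHOP (0.69 ± 0.12), and Cebpb (0.61 ± 0.09) were highest. At 8 h 11 of 20 had fallen in WT and 12 in KO, against 26.8% and 23.2% of all genes. The difference between genotypes in the change at 8 h was called lower for 3 of 20 (15%), Ddit3 (-0.68), Cebpb (-0.58) and Mafk (-0.51). It was called higher for 1 (5%), Atf7 (0.47), against 3.33% of all genes lower and 1.87% higher.

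Of 23 tested signalling genes upstream of AP-1, 6 were lower (26.1%) and 4 higher (17.4%) in KO at 0 h, against 17.9% and 18.8% of all genes. Elk3, a ternary complex factor that binds with serum response factor, was at -0.81 ± 0.14 and the ERK kinase gene Map2k2 at 0.48 ± 0.07. Of 17 listed genes, chiefly factors that bind AU-rich elements or shorten tails, 3 were lower (17.6%) and 4 higher (23.5%) in KO at 0 h. These shares at 0 h were also near those over all genes. At 8 h 7 of the 17 were called higher in KO (41.2%) and 1 lower (5.88%), against 13.9% and 13.7% of all genes. The list also holds Mbnl1 and Mbnl2. Mbnl1 was itself called higher in KO at 0 h (0.19 ± 0.05, edgeR adjusted p = 0.00081). It was called higher at 4 h (0.14 ± 0.05, adjusted p = 0.033) and 8 h (0.26 ± 0.05, adjusted p = 2.1e-05) too. Zfp36, which encodes tristetraprolin, was 40.9 CPM in WT and 23.2 in KO at 0 h (-0.82 ± 0.07, edgeR adjusted p = 4.6e-16) and 14.5 and 14.7 CPM at 8 h (adjusted p = 0.88). Zfp36 was the only 1 of the 17 (5.88%) called for a difference in the change at 8 h (0.84 ± 0.11, edgeR adjusted p = 5.3e-08). Over all genes 5.2% were called either way in this comparison, a share near that of the list. Of 7 genes for the turnover of Jun and Fos proteins, 2 were lower and 2 higher (28.6% each) in KO at 0 h, with Cops5 at 0.28 ± 0.06 and Senp1 at -0.32 ± 0.11.

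Known AP-1 target genes were called in both directions too. Of 23 tested, 8 were lower (34.8%) and 7 higher (30.4%) in KO at 0 h, against 17.9% and 18.8% of all genes (median -0.10 on the log2 scale, against -0.02). Icam1, an adhesion molecule that is also a NF-κB target, was 36.5 CPM in KO and 8.60 in WT (2.09 ± 0.08), and the chemokine gene Cxcl1 4.50 and 0.507 (3.14 ± 0.24). Mmp14 and Edn1 were at -0.97 ± 0.35 and -0.74 ± 0.22 (edgeR adjusted p = 0.023 and 0.0047). At 8 h 11 of 23 had fallen in WT and 11 in KO, against 26.8% and 23.2% of all genes, and Hmox1, which encodes haem oxygenase, had a change in KO that lay below that in WT (difference -0.79 ± 0.10). Target lists come from many tissues, so a listed gene need not depend on AP-1 in cardiomyocytes.

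**Figure D5:**
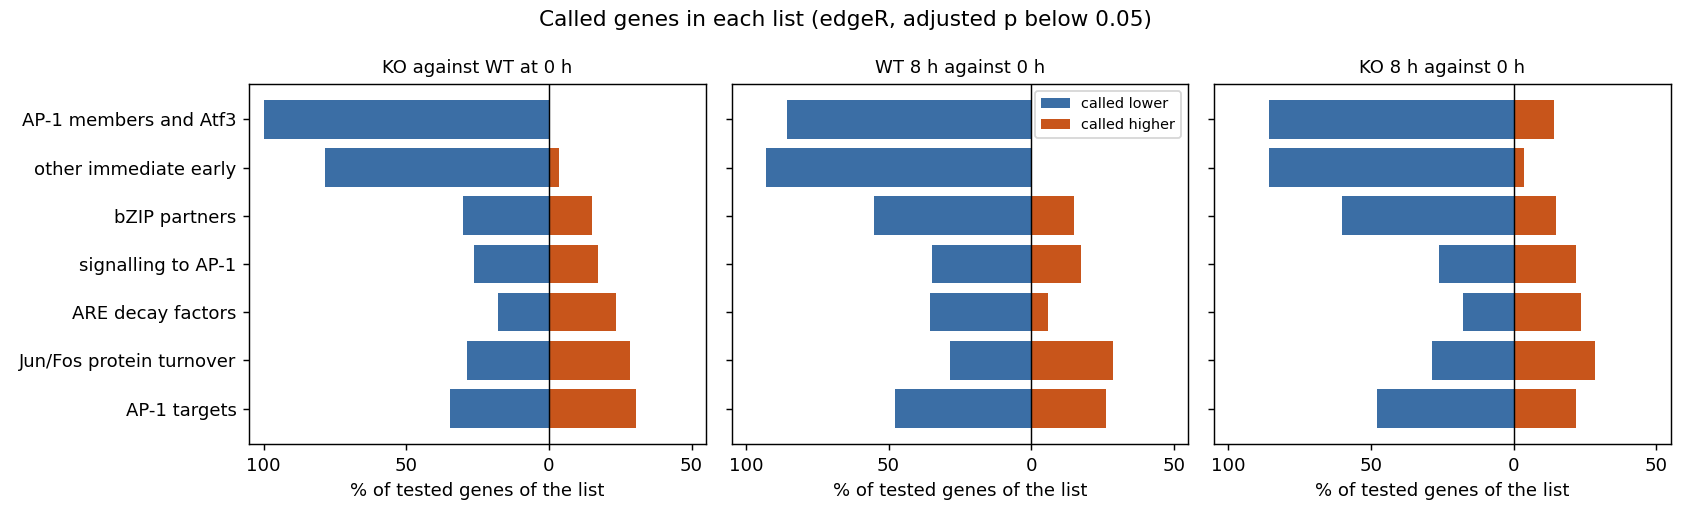
Percent of the tested genes of each list called lower (left of 0) or higher (right of 0) by edgeR at an adjusted p below 0.05, for KO against WT at 0 h, WT 8 h against 0 h and KO 8 h against 0 h. The 7 tested AP-1 genes and the 28 other immediate early genes are mostly called lower, while each other list holds calls in both directions. These are not always even. At 8 h against 0 h, 11 of 20 bZIP partners were lower and 3 higher in WT, and 12 lower and 3 higher in KO. Of 17 decay factors, 6 were lower and 1 higher in WT.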

How the data were processed

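The authors deposited raw counts per gene and a table of ratios. Per the submitters' processing notes, STAR, featureCounts, DESeq2 and limma were used with GRCm38 or mm10; their versions and roles, and strand handling, are not given there. One row without a gene name, 0.00735 to 0.0155% of counts, was left out. The deposited ratio of a gene is to its mean at 0 h, but departs from 1 factor per library. GENCODE M21 gave symbols for 99.4% of gene IDs.

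edgeR 4.0.16 (R 4.3.3; filterByExpr, TMM, quasi-likelihood F test, 6-group model) tested 13229 genes with 99.93% of counts. limma 3.58.1 tested log2(ratio + 0.01). Alternatives included DESeq2 1.42.0, other scalings and filters, a replicate block and leaving out each library. Same-numbered libraries deviated together with r of -0.0469 to 0.0382 over 40 pairs, so numbers were not taken as pairs. On data simulated with 200 genes changed in KO at 8 h, the test recovered 86.9% of 2-fold and 64.6% of 1.5-fold differences from WT. For the difference of changes it recovered 78.8% and 58.6%, over 12781 genes. Of the 158 and 147 calls made, 8 and 11 were false. The data themselves gave 3645 and 688 calls in these comparisons, so the recovered shares need not hold for them. The members and lists were chosen with earlier results of these data known. Genes named were all members, the extreme called genes of each list and the 3 genes most like each member.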

Additional observations from a re-analysis of the deposited data

Results flagged for a closer look

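The change from 0 to 8 h differed between the genotypes for Fos, by 0.28 on the log2 scale (KO minus WT, edgeR adjusted p = 0.0248), and for Fosb, by 0.43 (adjusted p = 0.0396). Both values are given because the test of the difference itself passed the threshold. Leaving out 1 library at a time gave 0.24 to 0.33 for Fos and 0.34 to 0.52 for Fosb and ended the call in 7 of 12 and 10 of 12 cases. With DESeq2 Fosb was not called (adjusted p = 0.0744), and the KO libraries started below the WT libraries for both genes.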

How the results depend on the processing

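Of 1428 values of single members under an alternative, 1353 kept direction and side of the threshold, 25 lost the call, 18 gained it and 32 changed sign. Leaving out a library gave 22 of the 25 losses, 3 of the gains and 15 of the sign changes, over 756 values. With ribosomal protein scaling the members called in WT from 4 to 8 h rose from 3 to 7, and all genes called from 2442 to 9378. In KO the members rose from 2 to 4 and all genes from 1137 to 2170. With library size alone the members called for the difference at 4 h rose from 0 to 2 and all genes from 46 to 100. DESeq2 called 1 member for the difference at 8 h and leaving out a library 0 to 2. Sign changes with ribosomal protein scaling were Fos in WT 8 h against 4 h (-0.44), Jun there (-0.34), Fos in KO at 4 h (-0.083), at 8 h (-0.18) and between 4 and 8 h (-0.095), Fosl2 between 4 and 8 h in KO (-0.07), and the 8 h differences of Junb (0.17), Jund (0.15) and Atf3 (0.23). With library size alone they were Fos from 4 to 8 h in WT (-0.0032) and KO (-0.010), the 4 h differences of Junb (0.034) and Jund (0.12) and the 8 h difference of Atf3 (0.060). Without a filter they were the 4 h difference of Jund (0.034) and the 8 h difference of Atf3 (0.012), and with only the groups compared the former (0.027). Leaving out a library gave ranges spanning 0 for Jun in KO against WT at 4 h (-0.10 to 0.026), Junb from 4 to 8 h in WT (-0.069 to 0.025) and KO (-0.10 to 0.021), the 4 h difference of Jund (-0.11 to 0.062), the 8 h differences of Fosl2 (-0.030 to 0.092), Jun (-0.036 to 0.076) and Atf3 (-0.13 to 0.047), and the 4 h ratio differences of Fosb (-0.027 to 0.084) and Jund (-0.065 to 0.082). The cause was not tested. Over all genes, ribosomal protein scaling called 8084 genes in KO against WT at 0 h (94.1% lower) against 4848 (48.7% lower), and 11316 in WT at 8 h (99.6% lower) against 6859 (51.7% lower), and library size alone called 6469 (86% lower) and 7172 (82.2% lower). The replicate block changed no member call: the 8 h differences called stayed at 2.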
